A study of Homo sapiens with 6 samples.

Results

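The genes of DNA replication and S phase were examined in RNA-Seq counts of H1155 cells. They are 49 genes, chosen by symbol from a list, out of 58735 genes in the deposited count table. All 49 were found, and all 49 were among the 17514 genes with enough counts to be tested. Their smallest count in any library was 246. The list holds the MCM helicase, the origin recognition complex (ORC), the licensing factors, CDC45 and GINS, the DBF4-dependent kinase (DDK), the sliding clamp and its loader, the replicative polymerases, the enzymes that finish Okazaki fragments, RPA, 4 enzymes of deoxynucleotide synthesis and UHRF1.

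H1155 is a neuroendocrine large cell lung cancer line, and GFI1 is a zinc-finger transcriptional repressor that these cells express. Wildtype (WT) and GFI1-knockout (GFI1-KO) H1155 cells were compared with 3 libraries each. Both groups grew in DMEM with 10% FBS and received no treatment. The knockout was made with CRISPR/Cas9 and sgRNAs against the promoter region of GFI1, and GFP+ cells were sorted as monoclonal clones. The sources do not say whether the libraries of a group came from separate cultures, or how many clones they represent, so p-values measure the spread between these libraries, which may be technical, and genotype and clone cannot be told apart. The labels give no batch.

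The edited gene did not check the labels. GFI1 (chr1:92474762-92486876, GRCh38) had normalized counts of 157, 117 and 131 under the WT label and of 166, 178 and 160.0 under the GFI1-KO label. Every library labelled GFI1-KO was above every library labelled WT, with a log2 fold change of 0.31 ± 0.12 (SE; edgeR quasi-likelihood test, adjusted p = 0.0273). The call was lost when GC content and gene length were corrected for (log2 fold change 0.17, adjusted p = 0.232 from the same test). These counts measure GFI1 RNA, not the edited promoter or the protein, and why the RNA was not lower was not tested. The paper shows immunoblots of GFI1 protein for H1155 and its knockout, a different measure that the counts cannot replace. The groups are therefore called by their labels throughout, and "higher" and "lower" describe libraries labelled GFI1-KO relative to those labelled WT. Library totals lay between 14882914 and 17692882 counts, and the 3 libraries labelled GFI1-KO were the deepest. The 49 genes took between 0.728% and 0.747% of the counts in the libraries labelled WT and between 0.662% and 0.663% in those labelled GFI1-KO. In bulk RNA, fewer cells in S phase and less RNA of these genes per cell cannot be told apart.

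Replication starts in steps that separate licensing from firing. In G1, ORC binds origins and, with CDC6 and CDT1, loads MCM2-7 as an inactive double hexamer, and geminin (GMNN) later blocks CDT1 so that no origin is licensed again. At the start of S phase, CDKs and DDK convert MCM2-7 into the active CDC45-MCM-GINS helicase, and polymerase alpha-primase, polymerases delta and epsilon, the PCNA clamp and RPA then copy the DNA, with deoxynucleotides made by ribonucleotide reductase and thymidylate synthase. Many of these genes are known to be transcribed from late G1 onward under E2F factors, which is why they are used to mark dividing cells.

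Of the 49 genes, 32 were lower, 14 were higher and 3 (CDC6, GINS2 and RFC5) did not pass the test. Over all genes tested, 35.9% were lower and 36.5% were higher, so the share of lower genes among the 49 was above that background and the share of higher genes was below it. The median log2 fold change of the 49 was -0.20, and that of all genes tested was 0.00. Log2 fold changes ran from -0.99 for POLE2 to 0.92 for MCM5. At a size of at least 0.5, 10 genes were lower and 6 were higher, while 20.2% and 24.1% of all genes tested were lower and higher by that size. The groups did not overlap for 46 of the 49 genes, against 74.4% of all genes tested. The map of fold changes by role shows where the 2 directions lay. All 6 ORC genes, both DDK genes, 5 of the 6 clamp and clamp loader genes and all 3 RPA genes were lower, whereas both Okazaki fragment enzymes and 4 of the 6 MCM2-7 genes were higher. When GC content and gene length were corrected for, as described next, 5 ORC genes, 1 DDK gene, 4 clamp and clamp loader genes and 2 RPA genes were lower, and 1 Okazaki fragment enzyme and 2 MCM2-7 genes were higher. The counts of 13 genes are uncertain because over 10% of their exon bases or of the 50-base words in their transcripts are shared with other genes: MCM2, MCM8, ORC4, ORC6, GINS3, GINS4, DBF4, RFC5, POLA2, PRIM1, PRIM2, TYMS and UHRF1.

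**Figure D1:**
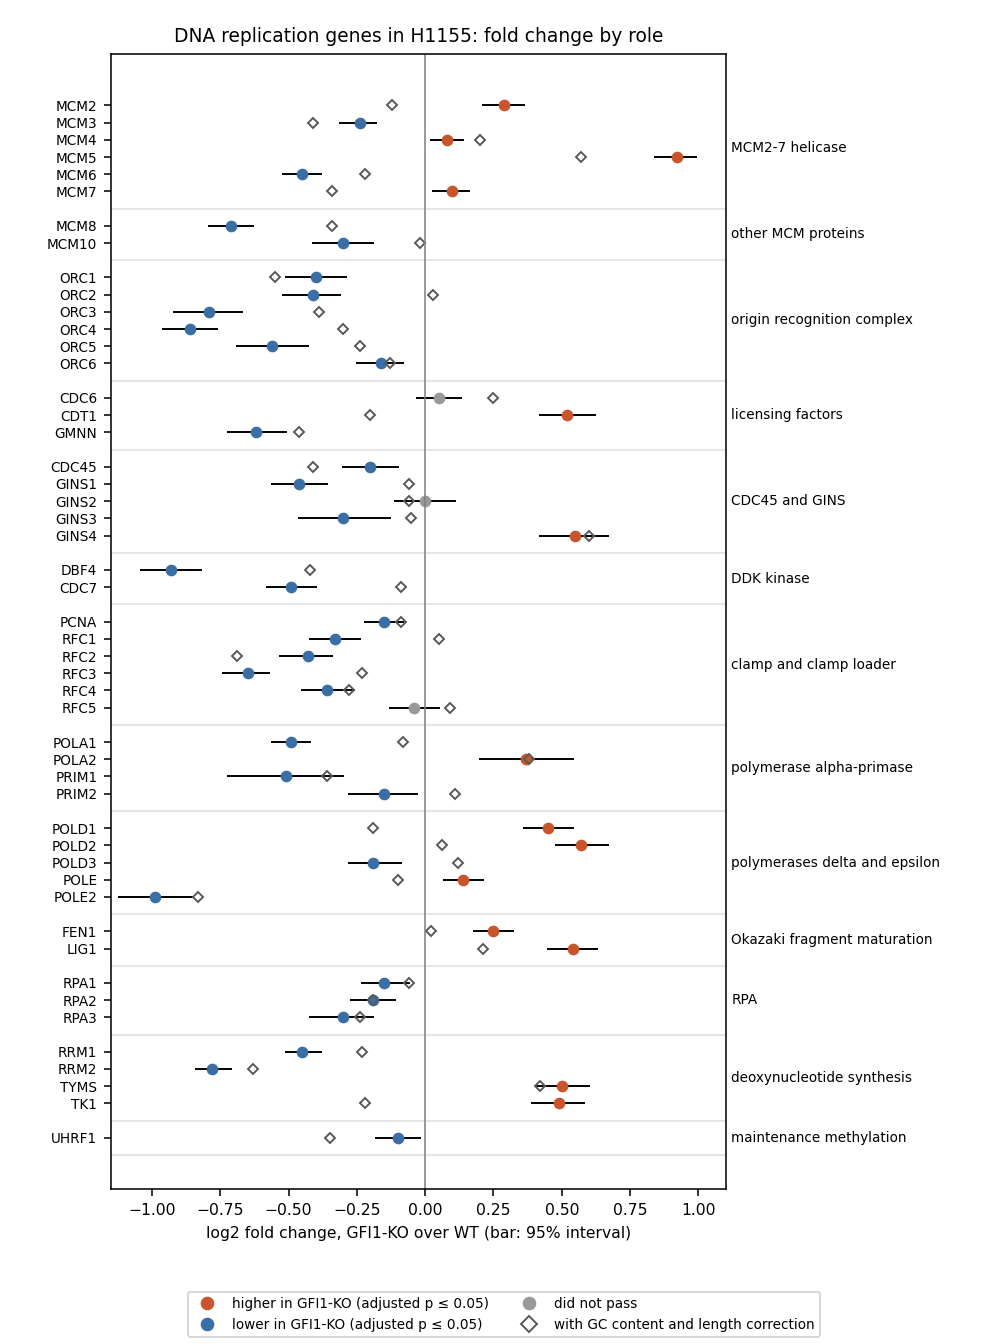
Log2 fold change (libraries labelled GFI1-KO over those labelled WT, x axis) of the 49 replication genes, grouped by role (y axis), with the 95% interval as a bar, orange for higher, blue for lower and grey for genes that did not pass, and an open diamond for the value after correction for GC content and length. POLE2 lies farthest to the left at -0.99 and MCM5 farthest to the right at 0.92, and the diamonds of CDT1, TK1, POLD1 and MCM7 lie on the other side of 0 from their points.

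The direction of a gene's difference moved with its base composition. Across the 49 genes, the log2 fold change followed the GC content of the longest transcript with a Spearman rho of 0.79 and a Pearson r of 0.778 (n = 49 genes, which share the same 6 libraries). Across 17415 genes tested that had a GC content, rho was 0.574. Below 42% GC, 11 of 11 replication genes were lower, as were 71.6% of all genes in that range. Between 42% and 46%, 13 of 15 were lower and none was higher, against 48.2% lower and 17.5% higher among all genes. Between 46% and 50%, 4 were higher and 3 lower of 8, against 29.8% higher and 31.2% lower among all genes. At 50% or more, 10 of 15 were higher and 5 lower, against 62.3% higher and 12.4% lower among all genes. The 5 that were lower were MCM3, ORC1, CDC45, RFC2 and UHRF1. The trend follows the groups, and its part in the results was not tested. Each fold change of the 49 genes is therefore given below with its value after the correction for GC content and length, which left a rho of 0.091 for the 49 genes. Normalized counts, FPKM and ratios of FPKM are not corrected.

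With the correction, 29 of the 49 genes were lower and 8 were higher, where 28.3% and 32.5% of the genes tested were lower and higher, and the median log2 fold change of the 49 was -0.13 (all genes, 0.02). Of the genes lower without it, 23 kept that call. Of the 14 higher genes, 6 kept it: MCM4, MCM5, GINS4, POLA2, LIG1 and TYMS. Another 6 of the 14 became lower (MCM2, MCM7, CDT1, POLD1, POLE and TK1), and POLD3 turned from lower to higher. The plot of fold change against GC content shows MCM5 above the band of all genes and POLE2 and RRM2 below it on both sides.

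**Figure D2:**
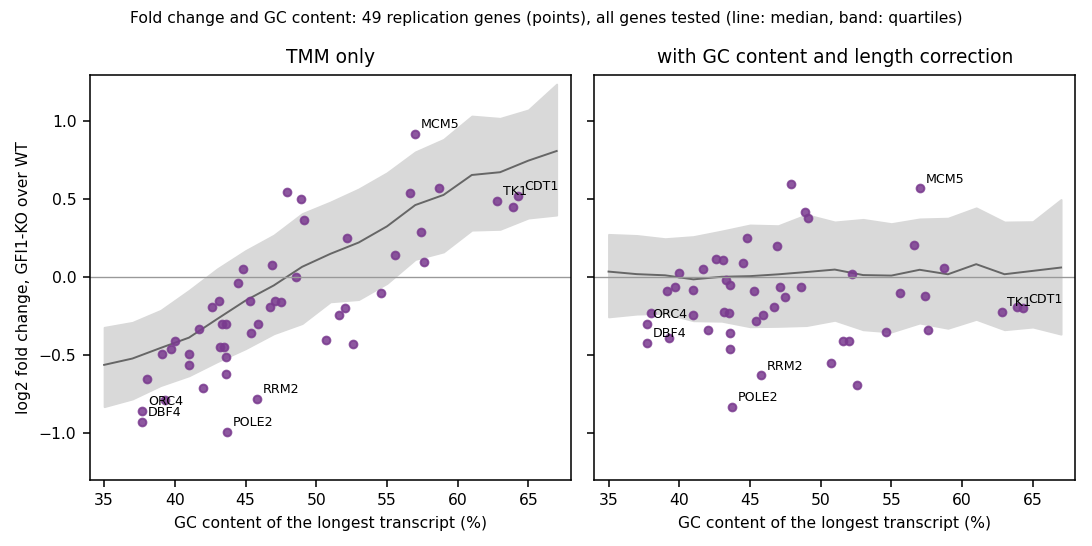
Log2 fold change (y axis) against GC content of the longest transcript in percent (x axis) for the 49 replication genes (points) and the median and quartiles of all genes tested (line and grey band), without (left) and with (right) the correction for GC content and length. On the left the points climb with GC content (rho 0.79), and on the right they do not (rho 0.091), with MCM5 at 0.57, RRM2 at -0.63 and POLE2 at -0.83.

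Promoters were read from RefSeq, which gave 250 bases before the start of 43 of the 49 genes (GRCh38.p14). No entry was there for MCM4, MCM5, GINS4, POLD3, RPA2 or RPA3. An E2F site, counted as TTTCCCGC, TTTGGCGC, TTTCGCGC or TTTGCCGC on either strand, was found in 14 of the 43 promoters (32.6%), beside 2.79% of 27305 promoters in the table and 4.31% of the 11514 that belong to genes tested. It was present before 6 of 11 higher genes and 7 of 29 lower genes by the calls without the correction, and 3 of those 6 (CDT1, POLE and MCM7) were lower with it. The stretches around the site nearest to the start are shown for 5 higher and 6 lower genes, to show the letters before genes of either call. Higher and lower beside each name are the calls without the correction. Each is written 5′ to 3′ on the strand of the gene, with the site in capitals. In GENCODE release 44, those of LIG1, POLE, MCM7, RFC3 and UHRF1 lie in an annotated exon of the gene itself, that of TYMS lies in an intron of the neighbouring TYMSOS, and the others lie in no annotated gene, although the deposited gene spans of CDT1 and TYMS begin before them.
CDT1 (higher, lower with the correction; chr16:88803745-88803770, + strand): agggcgcccGCGGGAAAtttggcggg
TYMS (higher; chr18:657605-657630, + strand): gggacggccGCGGGAAAaggcgcgcg
LIG1 (higher; chr19:48170442-48170467, - strand): ttcacccctTTTCCCGCcctcctccc
POLE (higher, lower with the correction; chr12:132687344-132687369, - strand): ggtgggagcGCGCCAAAtttctcccc
MCM7 (higher, lower with the correction; chr7:100101398-100101415, - strand): ggggcgacgTTTCGCGCc
MCM6 (lower; chr2:135876513-135876542, - strand): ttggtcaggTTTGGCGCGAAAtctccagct
MCM3 (lower; chr6:52284900-52284925, - strand): gatggtacgTTTCCCGCcaccgcggg
PCNA (lower; chr20:5126665-5126690, - strand): gcgtcagggGCGGGAAAaggcgtgcg
RFC3 (lower; chr13:33818085-33818110, + strand): ttggagctcGCGGGAAAacttgtctc
POLA1 (lower; chrX:24693772-24693797, + strand): catcacaggGCGCCAAAcgcgcgtcc
UHRF1 (lower; chr19:4909478-4909500, + strand): cgagttttcGCGGGAAAaaaatc

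Among the stretches shown, the letters GCGGGAAA, the other strand of TTTCCCGC, stood before CDT1, TYMS, PCNA, RFC3 and UHRF1. Of these, PCNA, RFC3 and UHRF1 were lower in both fits, CDT1 was higher without and lower with the correction, and TYMS, whose count is uncertain, was higher in both. Outside those stretches, the same letters stood before ORC3 (lower in both fits), GINS2 (not passing in either) and MCM7 (higher without and lower with the correction). In MCM6, TTTGGCGC and TTTCGCGC overlap on opposite strands. A CCAAT box was found in 24 of the 43 promoters (55.8%), in 3 of 11 higher and 18 of 29 lower genes, beside 33.0% of all promoters and 34.5% of those of genes tested. The CHR element TTTGAA, known from promoters of G2/M genes, was found in 1 of 43 (2.33%), in RRM1, beside 13.6% of all promoters and 8.32% of those of genes tested. Letters around the GFI1 core AATC were searched as TAAATC, then with another base at the front as CAAATC, and with a base added behind as AAATCA, which can overlap either of the former. They were found in 7 of 43 (16.3%), in 1 of 11 higher and 6 of 29 lower genes, beside 20.5% of all promoters and 13.7% of those of genes tested. Such matches describe letters in a window and show no binding.

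The MCM2-7 subunits, which form the ring-shaped motor of the replicative helicase, did not move together. MCM5 (chr22:35400063-35425430) had 2113, 2101 and 2007 normalized counts in WT and 3925, 3967 and 3849 in GFI1-KO. The groups were far apart, and MCM5 had the largest increase of the 49 genes (log2 fold change 0.92 ± 0.04 SE, edgeR adjusted p = 6.4e-18), which was 0.57 with the correction. MCM6 (chr2:135839626-135876426) had 5133, 4831 and 5275 normalized counts in WT and 3714, 3738 and 3718 in GFI1-KO. Every library labelled GFI1-KO was below every library labelled WT (log2 fold change -0.45 ± 0.04 SE, edgeR adjusted p = 1.1e-11), and with the correction the value was -0.22. MCM4 (chr8:47960185-47978160) had 10787, 10771 and 10886 normalized counts in WT and 11489, 11342 and 11468 in GFI1-KO. Its groups did not overlap, but the difference was small (log2 fold change 0.08 ± 0.03 SE, edgeR adjusted p = 0.0201). It lost the call without WT replicate 1 (0.07, adjusted p = 0.0778), without WT replicate 2 (0.07, adjusted p = 0.0639) and without GFI1-KO replicate 3 (0.08, adjusted p = 0.0587), and it was 0.20 with the correction.

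Of the remaining subunits, MCM3 was lower (-0.24) and was -0.41 with the correction. MCM2 and MCM7 were higher (0.29 and 0.10) and lower with the correction (-0.12 and -0.34). MCM7 also lost its call without WT replicate 1 (0.07, edgeR adjusted p = 0.0944). Per length, the summed level of the 6 subunits was 419.6 ± 6.27 FPKM (SD, n = 3) in WT and 414 ± 2.92 FPKM (SD, n = 3) in GFI1-KO. MCM5 was the least abundant subunit in WT, with 17.2 ± 0.476 FPKM, and stood at 32.0 ± 0.473 FPKM in GFI1-KO. MCM7, the most abundant, went from 106 ± 2.62 to 112 ± 2.42 FPKM (SD, n = 3). The level of the most abundant subunit was between 5.90 and 6.47 times that of the least abundant in the libraries labelled WT and between 3.49 and 3.54 times in those labelled GFI1-KO. The MCM5/MCM3 ratio of FPKM was 0.176 ± 0.00848 in WT and 0.392 ± 0.00578 in GFI1-KO (SD, n = 3). This ratio and those of FPKM below were chosen after the values had been seen.

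MCM8 and MCM10 lie outside the hexamer. MCM8, a helicase of homologous recombination (chr20:5950652-5998977), had 2863, 2729.8 and 2690.2 normalized counts in WT and 1694, 1649 and 1726 in GFI1-KO. It was lower in every library labelled GFI1-KO (log2 fold change -0.71 ± 0.04 SE, edgeR adjusted p = 7.8e-15; -0.34 with the correction). Exons of other genes cover 33.3% of its exon bases, which makes it 1 of the uncertain counts. MCM10, which helps to activate the helicase, was lower (-0.30) and did not pass with the correction (-0.02).

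**Figure D3:**
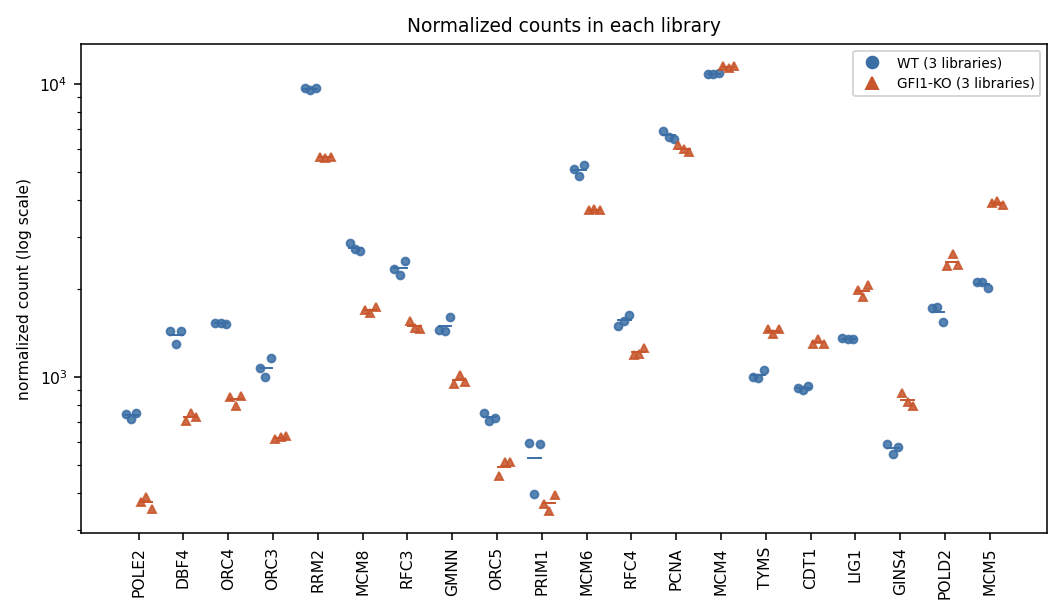
Normalized counts (log scale, y axis) of the 20 replication genes described by library (x axis, from the most lowered to the most raised), with a circle for each library labelled WT, a triangle for each labelled GFI1-KO and a line at each mean. The groups are apart for every gene shown, and PRIM1 has a WT library at 397 close to the GFI1-KO library at 395.

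ORC, the complex that marks origins, was lower in all 6 subunits, and its summed level went from 94.3 ± 1.74 FPKM in WT to 67.5 ± 0.319 FPKM in GFI1-KO (SD, n = 3). ORC4 (chr2:147930397-148021604) had 1529.7, 1521 and 1519.8 normalized counts in WT and 854, 798 and 860.2 in GFI1-KO (log2 fold change -0.86 ± 0.05 SE, edgeR adjusted p = 9.8e-15). ORC3 (chr6:87590067-87667453) had 1068, 1001 and 1158 in WT and 612, 623 and 627 in GFI1-KO (log2 fold change -0.79 ± 0.06 SE, edgeR adjusted p = 3.4e-12). ORC5 (chr7:104126341-104208047) had 751, 707 and 726 in WT and 459, 511 and 513 in GFI1-KO (log2 fold change -0.56 ± 0.06 SE, edgeR adjusted p = 1.2e-08). These 3 subunits belong to the core of the complex, and none of their groups overlapped. With the correction they stayed lower, at -0.30, -0.39 and -0.24.

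The other ORC subunits were lower by less without the correction. ORC1, the subunit whose level follows the cell cycle, was at -0.40 and at -0.55 with the correction, which was then the largest decrease of the 6. ORC6, the smallest subunit, was at -0.16 and -0.13. ORC2 was at -0.41 and did not pass with the correction (0.03, edgeR adjusted p = 0.596), so 5 of the 6 were lower after it. More than 10% of the 50-base words of ORC4 (15.6%) and ORC6 (12.4%) also occur in other genes, which makes their counts uncertain.

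The licensing factors went in different directions. CDT1 (chr16:88803213-88809258), the MCM loading factor, had 914, 904 and 927 normalized counts in WT and 1299, 1350.4 and 1292 in GFI1-KO. It was higher in every library labelled GFI1-KO (log2 fold change 0.52 ± 0.05 SE, edgeR adjusted p = 2.3e-10). CDT1 has the highest GC content of the 49 genes (64.3%), and with the correction it was lower (-0.20, adjusted p = 0.00111 from the same test). GMNN (chr6:24774931-24786099), which encodes the CDT1 inhibitor geminin, had 1445, 1434 and 1599 normalized counts in WT and 944, 1017 and 959 in GFI1-KO. The groups did not overlap (log2 fold change -0.62 ± 0.05 SE, edgeR adjusted p = 3.3e-11), and GMNN stayed lower with the correction (-0.46). Per length, the CDT1/GMNN ratio was 0.456 ± 0.0223 in WT and 1.00 ± 0.0177 in GFI1-KO (SD, n = 3). The ratio inherits the GC difference between these genes, as GMNN has 43.6% GC. CDC6, the ATPase that works with ORC, did not pass (0.05, edgeR adjusted p = 0.29), its groups overlapped, and with the correction it was higher (0.25, adjusted p = 5.9e-06 from the same test).

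CDC45 and GINS, the partners of MCM2-7 in the active helicase, were lower in 3 genes and higher in 1. GINS4 (chr8:41529206-41545046), which encodes the SLD5 subunit, had 588, 545 and 576 normalized counts in WT and 879, 822 and 798 in GFI1-KO. It was higher in every library labelled GFI1-KO (log2 fold change 0.55 ± 0.06 SE, edgeR adjusted p = 7.2e-09; 0.60 with the correction). Exons of other genes cover 23.4% of its exon bases, so its count is uncertain. CDC45 was at -0.20 and at -0.41 with the correction. GINS1 (-0.46) and GINS3 (-0.30) were lower and did not pass with the correction (-0.06 and -0.05). GINS2 did not pass in either fit (0.00 and -0.06), and its 95% interval ran from -0.11 to 0.11. The 4 GINS proteins form a complex of equal parts, and their log2 fold changes spanned the range from -0.46 to 0.55.

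DDK, the kinase that phosphorylates MCM2-7 to fire origins, was lower in both genes. DBF4 (chr7:87876216-87909541), the regulatory subunit, had 1429, 1298 and 1433 normalized counts in WT and 706, 752 and 728 in GFI1-KO. No library of either group came near the other group (log2 fold change -0.93 ± 0.05 SE, edgeR adjusted p = 1.8e-14), and with the correction the value was -0.42. CDC7, the catalytic subunit, was at -0.49 and narrowly did not pass with the correction (-0.09, edgeR adjusted p = 0.0558). Summed FPKM of the kinase was 49.7 ± 2.32 in WT and 31.6 ± 0.732 in GFI1-KO, and the DBF4/CDC7 ratio was 0.585 ± 0.011 and 0.433 ± 0.00795 (SD, n = 3). Both genes are below 40% GC (37.7% and 39.1%), and 16.8% of the 50-base words of DBF4 occur in other genes.

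PCNA, the ring that holds the polymerases on DNA, was the most abundant of the 49 genes per length, with 275 ± 9.01 FPKM in WT and 245 ± 6.09 FPKM in GFI1-KO (SD, n = 3). PCNA (chr20:5114953-5126626) had 6907, 6599.8 and 6477 normalized counts in WT and 6158, 6001 and 5850 in GFI1-KO. The groups were close to each other and did not overlap (log2 fold change -0.15 ± 0.03 SE, edgeR adjusted p = 3.0e-04; -0.09, adjusted p = 0.0156 with the correction). The loader that opens the ring, RFC, was lower in 4 of 5 subunits. RFC3 (chr13:33818049-33966558) had 2330.4, 2232 and 2481 normalized counts in WT and 1547, 1473 and 1456 in GFI1-KO (log2 fold change -0.65 ± 0.04 SE, edgeR adjusted p = 3.7e-13). RFC4 (chr3:186789880-186807058) had 1487, 1555 and 1629 in WT and 1189, 1199.7 and 1256 in GFI1-KO (log2 fold change -0.36 ± 0.05 SE, edgeR adjusted p = 1.3e-07). Neither small subunit had overlapping groups, and with the correction they were at -0.23 and -0.28. RFC2 was at -0.43 and at -0.69 with the correction. RFC1, the large subunit, was at -0.33 and did not pass with the correction (0.05), and RFC5 did not pass in either fit (-0.04 and 0.09).

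**Figure D4:**
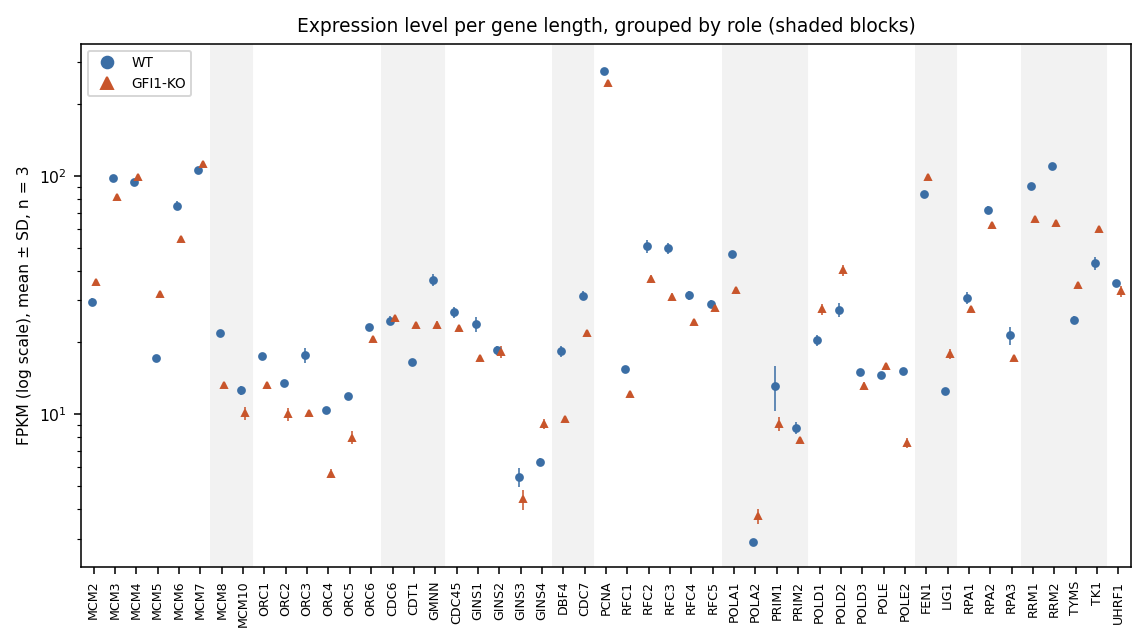
Level per gene length (FPKM, log scale, y axis) of the 49 replication genes (x axis, shaded blocks for roles) in the libraries labelled WT (circles) and GFI1-KO (triangles), as mean ± SD of 3 libraries. PCNA is highest in both groups (275 and 245) and POLA2 lowest (2.92 and 3.73), and the 6 MCM2-7 subunits lie closer together in GFI1-KO than in WT.

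Polymerase alpha-primase, which lays down the primers, was lower in 3 of 4 subunits. PRIM1 (chr12:56731596-56752373), the catalytic primase subunit, had 593, 397 and 592 normalized counts in WT and 369, 348 and 395 in GFI1-KO. WT replicate 2 was close to the libraries labelled GFI1-KO, and the groups were separated by a narrow gap (log2 fold change -0.51 ± 0.10 SE, edgeR adjusted p = 7.9e-05; -0.36 with the correction). Without WT replicate 2 the value was -0.68, and over all libraries left out in turn it stayed lower. Exons of other genes cover 19.1% of the exon bases of PRIM1. POLA1, the polymerase subunit, was at -0.49 and at -0.08 with the correction, where it still passed (edgeR, adjusted p = 0.0313). POLA2, the least abundant of the 49 genes, was higher (0.37, and 0.38 with the correction), with 21.3% of its exon bases shared. PRIM2 was at -0.15 and lost its call without WT replicate 3 or any library labelled GFI1-KO (-0.16 to -0.11) and with the correction (0.11).

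Polymerases delta and epsilon, which copy the lagging and leading strands, were higher in 3 of 5 genes and held the largest decrease of all 49. POLE2 (chr14:49643555-49688422), the second subunit of polymerase epsilon, had 745, 717 and 754 normalized counts in WT and 374, 390.4 and 354 in GFI1-KO. Its level in WT was 1.98 times that in GFI1-KO, with no overlap (log2 fold change -0.99 ± 0.06 SE, edgeR adjusted p = 3.0e-13), and -0.83 remained with the correction. POLE, the catalytic subunit, was higher (0.14) and lower with the correction (-0.10). The POLE2/POLE ratio of FPKM was 1.04 ± 0.031 in WT and 0.477 ± 0.028 in GFI1-KO (SD, n = 3). POLD2 (chr7:44114681-44124358), the second subunit of polymerase delta, had 1724, 1731 and 1535 normalized counts in WT and 2389.8, 2627 and 2405 in GFI1-KO. It was higher in every library labelled GFI1-KO (log2 fold change 0.57 ± 0.05 SE, edgeR adjusted p = 2.4e-11), and the call was lost with the correction (0.06, adjusted p = 0.264 from the same test). POLD1, the catalytic subunit, was higher (0.45) and lower with the correction (-0.19), and POLD3 was lower (-0.19) and higher with the correction (0.12).

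The enzymes that finish Okazaki fragments were both higher. LIG1 (chr19:48115445-48170603), the ligase that seals the nicks, had 1359, 1345 and 1348 normalized counts in WT and 1976, 1867 and 2056 in GFI1-KO. The WT libraries lay within a narrow range and all 3 GFI1-KO libraries above it (log2 fold change 0.54 ± 0.04 SE, edgeR adjusted p = 1.6e-11; 0.21, adjusted p = 1.2e-04 with the correction). FEN1, the flap endonuclease, was at 0.25 and did not pass with the correction (0.02, edgeR adjusted p = 0.608). RPA, which coats single-stranded DNA, was lower in all 3 subunits by a small amount, from -0.30 for RPA3 to -0.15 for RPA1. RPA2 and RPA3 stayed lower with the correction (-0.19 and -0.24), and RPA1 did not pass (-0.06).

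In deoxynucleotide synthesis, both subunits of ribonucleotide reductase were lower and both thymidylate enzymes were higher. RRM2 (chr2:10120698-10131419), the subunit that carries the tyrosyl radical and accumulates in S phase, had 9668, 9488 and 9698 normalized counts in WT and 5644, 5575 and 5622 in GFI1-KO. Its level in WT was 1.71 times that in GFI1-KO (log2 fold change -0.78 ± 0.03 SE, edgeR adjusted p = 1.2e-17), and it was -0.63 with the correction. RRM1, the large subunit, was at -0.45 and at -0.23 with the correction, and the RRM2/RRM1 ratio of FPKM was 1.21 ± 0.0134 in WT and 0.96 ± 0.0171 in GFI1-KO (SD, n = 3). TYMS (chr18:657604-673578), thymidylate synthase, had 999, 989 and 1055 normalized counts in WT and 1453, 1405 and 1454 in GFI1-KO. It was higher in every library labelled GFI1-KO (log2 fold change 0.50 ± 0.05 SE, edgeR adjusted p = 3.1e-10; 0.42 with the correction), but exons of other genes cover 47.9% of its exon bases, so the count is uncertain. TK1, the salvage kinase for thymidine, was higher (0.49) and lower with the correction (-0.22). Summed over the 4 genes, the level was 269 ± 5.05 FPKM in WT and 224 ± 0.875 FPKM in GFI1-KO (SD, n = 3).

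UHRF1, which brings maintenance methylation to newly copied DNA, was at -0.10 (edgeR, adjusted p = 0.0256) and at -0.35 with the correction. It lost the call without GFI1-KO replicate 2 (-0.05, adjusted p = 0.265 from the same test). Of its 50-base words, 21.4% occur in other genes.

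In each of 6 related lists, more genes were lower than higher, which held for 4 of them with the correction, while 2 then had equal numbers. Over all genes tested, 35.9% were lower and 36.5% higher, and 28.3% and 32.5% with the correction. The corrected numbers of the nucleotide synthesis and chromatin assembly lists below were near these shares. Among 22 other initiation and fork genes, 15 were lower and 5 higher (median log2 fold change -0.33). POLD4, the small subunit of polymerase delta, had the largest increase, from 19.7 ± 2.97 to 66.6 ± 8.71 normalized counts (SD, n = 3; log2 fold change 1.75, 1.20 with the correction), and 21.3% of its exon bases are shared. RECQL4, a helicase, was also higher (1.17 and 0.45), and ATAD5, which unloads PCNA, and TOP2A, a topoisomerase, were lower (-0.91 and -0.34, and -0.82 and -0.32). Among 13 other nucleotide synthesis genes, 6 were lower and 3 higher (median -0.17). DUT, the dUTPase, was higher in both fits (0.28 and 0.44), CAD of pyrimidine synthesis was higher (0.35) and not after the correction (-0.02), PPAT of purine synthesis was lower (-0.70) and not after it (-0.03), and DCK, deoxycytidine kinase, was lower in both (-0.60 and -0.16). With the correction, 11 of the 22 were lower and 6 higher, and 4 of the 13 were lower and 4 higher.

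Among 9 genes of chromatin assembly at forks, 5 were lower and 3 higher (median -0.22), and 3 were lower and 3 higher with the correction. SLBP, which binds the end of histone mRNA, went from 2250.3 ± 48.3 to 1081 ± 42.7 normalized counts (SD, n = 3; log2 fold change -1.06, edgeR adjusted p = 1.5e-17), and its value with the correction was -1.08. UHRF2 was lower (-0.66 and -0.39), DNMT1, the maintenance methyltransferase, was higher (0.40 and 0.16), and CHAF1A was higher (0.39) and not after the correction (-0.06). Of 18 genes of the E2F family and the G1/S cyclins, 10 were lower and 2 higher (median -0.16; 7 and 3 with the correction). E2F1 was at -0.12 and, with a GC content of 61.6%, at -0.78 with the correction. CDK2 was higher (0.44 and 0.28), E2F4 was higher and then lower (0.34 and -0.21), CCNA2, which encodes cyclin A, was lower (-0.54 and -0.30), and E2F5 was lower (-0.53) and not after the correction (-0.01). DUT, CDK2 and E2F5 share 14.5%, 16.8% and 18.8% of their exon bases with other genes.

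The G2/M genes, which mark later stages of the cycle, were lower in 15 of 20 and higher in 3 (median -0.23), with 14 lower and 1 higher after the correction. CENPE and CENPF, kinetochore proteins, were lower in both fits (-1.11 and -0.46, and -0.86 and -0.42). AURKB and CDC20 were higher (0.51 and 0.47) and did not pass with the correction (0.11 and -0.05). MKI67, the gene of the Ki-67 proliferation antigen, had 13838, 13954 and 12859.9 normalized counts in WT and 13156, 12617 and 12813 in GFI1-KO. Its groups overlapped, and it missed the threshold (log2 fold change -0.08, edgeR adjusted p = 0.0501), which it passed with DESeq2 (adjusted p = 0.0445) and without WT replicate 3 (-0.12, adjusted p = 1.4e-04), but not with the correction (0.02, adjusted p = 0.681). All 9 genes of replication stress and fork repair that were tested were lower (median -0.53), 6 of them also with the correction. BRCA2 (-0.87 and -0.24) and BLM (-0.65 and -0.26) had the largest decreases without the correction, and FANCD2 was also at -0.65. With it, FANCA (-0.14 without it) and FANCD2 were the lowest, at -0.40 and -0.38, and 19.6% of the exon bases of FANCA are shared. The median GC content of these 9 genes was 41.6%, and below 42% GC 71.6% of all genes tested were lower without the correction. The plot of gene lists shows that the spread within each list was wider than the distance between their medians.

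**Figure D5:**
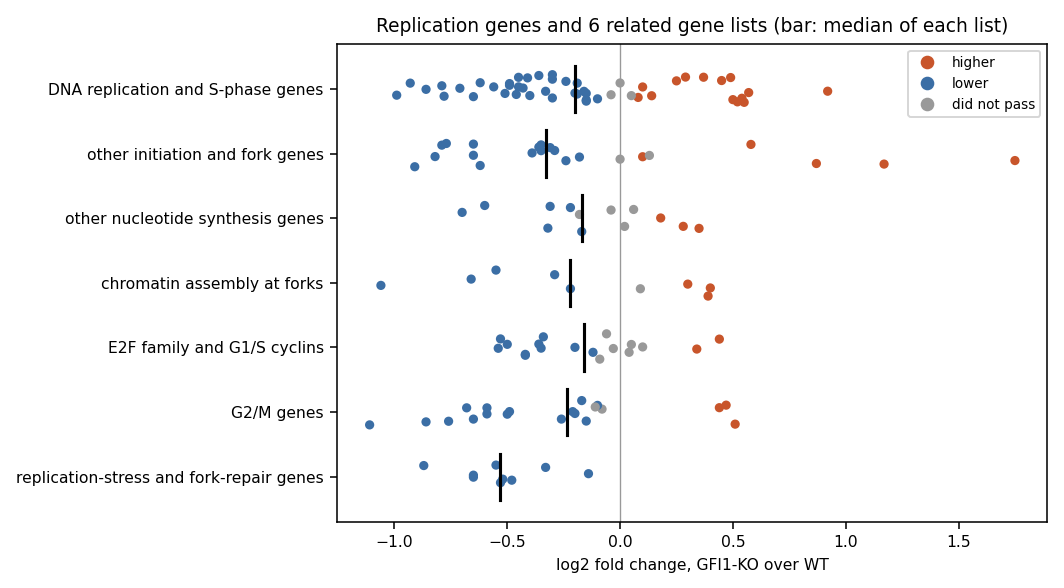
Log2 fold change (x axis) of each tested gene in the 49 replication genes and 6 related lists (y axis), coloured by call, with a black bar at the median of each list. Medians lie between -0.53 (replication-stress and fork-repair genes) and -0.16 (E2F family and G1/S cyclins), and POLD4 lies farthest to the right at 1.75.

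Markers of the labelled cell type were present, and markers of several cell types differed between the groups. The neuroendocrine marker SYP, a synaptic vesicle protein, had 4282, 4173 and 4208 normalized counts in WT and 9629.8, 10009 and 9638 in GFI1-KO (log2 fold change 1.21, and 1.07 with the correction). CHGA, a protein of secretory granules, went from 591 ± 54.5 to 942 ± 10.9 normalized counts (SD, n = 3), and its log2 fold change of 0.67 was 0.00 with the correction (edgeR adjusted p = 0.949). INSM1, a neuroendocrine transcription factor, had 6974 ± 265 normalized counts in WT and 6579 ± 251 in GFI1-KO (SD, n = 3), and was lower in both fits (-0.08 and -0.79).

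The 4 epithelial genes summed to between 41.4 and 44.4 FPKM in WT and between 44.6 and 49.9 FPKM in GFI1-KO, while their median log2 fold change was -1.12. KRT8 was higher (0.45, and 0.14 with the correction), EPCAM and CDH1 were lower (-2.23 and -2.31, and -2.11 and -2.25 with the correction), and KRT18 did not pass (-0.01) but was lower with the correction (-0.41). The 6 fibroblast genes summed to between 17.6 and 18.1 FPKM in WT and between 12.5 and 13.0 FPKM in GFI1-KO. Within them, COL3A1 went from 2.49 ± 0.721 to 139 ± 18.8 normalized counts, PDGFRB from 141 ± 1.41 to 14.8 ± 1.17 and COL1A2 from 2912 ± 49.6 to 2008 ± 43.1 (SD, n = 3), COL1A1 was lower (-0.41), LUM had at most 6 counts in any library and DCN was at 0 in every library. The 4 endothelial genes summed to between 3.53 and 3.97 FPKM in WT and between 1.76 and 1.99 FPKM in GFI1-KO, with PECAM1 lower (-1.12), CDH5 not passing (0.47) and VWF and KDR at no more than 3 counts. None of the 5 immune genes had over 3 counts in every library, and their sum was at most 0.207 FPKM. The part of these differences in the results was not tested.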

How the data were processed

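RNA-Seq counts of 3 libraries labelled WT and 3 labelled GFI1-KO were analysed. The authors deposited raw counts per gene, with each gene's length and position. The paper's methods name poly-T selection, Hisat2 and featureCounts on GRCh38, whereas the submitters' processing notes name Bowtie2 and HTSeq. The strand setting and the treatment of reads with several matches are not given in the sources used here. To normalize, each count was scaled by its library's effective size (total times TMM factor) to the mean effective size of the 6 libraries. FPKM used the deposited gene lengths and library totals. The floor of 3 counts corresponded to between 0.170 and 0.202 CPM and covers counting error only.

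All 17514 genes passing filterByExpr were tested with edgeR 4.0.16 (R 4.3.3; quasi-likelihood F test, Benjamini-Hochberg adjustment, adjusted p of at most 0.05, no fold minimum). The correction fitted natural splines (5 degrees of freedom) of GC content and length in each library. DESeq2 1.42.0, limma-voom (limma 3.58.1), other factors, filters, a stricter threshold and leaving out each library were alternatives. No duplicated library was found. The steps were tested on simulated data.

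The genes and lists were chosen with earlier results of these data known. Every one of the 49 genes is named. Given by library are those called with an absolute log2 fold change of at least 0.5, and MCM4, MCM6, RFC4 and PCNA. Of each other list, the 2 largest rises and falls among called genes, MKI67, E2F1, DNMT1, FANCA and FANCD2 are named. Genes with over 10% of exon bases or 50-base words shared are called uncertain. Values of some listed genes are not reported here. Python 3.11.15 was used.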

Additional observations from a re-analysis of the deposited data

How the results depend on the processing

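Over DESeq2, limma-voom, other normalization factors and filters, the replicate block, a threshold of 0.01 and each library left out in turn, between 12 and 14 of the 49 replication genes were higher and between 30 and 32 were lower. Corrected for GC content and length, the numbers were 8 and 29, alone and with the replicate block. Among the 49 genes and the genes named from other lists, the values that changed sign were, alone and with the block, -0.12 for MCM2, -0.34 for MCM7, 0.03 for ORC2, -0.20 for CDT1, 0.05 for RFC1, 0.09 for RFC5, 0.11 for PRIM2, -0.19 for POLD1, 0.12 for POLD3, -0.10 for POLE, -0.22 for TK1, -0.02 for CAD, -0.06 for CHAF1A, -0.21 for E2F4, -0.05 for CDC20 and 0.02 for MKI67. The cause was not tested.

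The log2 fold change of GFI1 was no longer called with DESeq2 (0.31), upper-quartile factors (0.27), the correction (0.17), the correction with the block (0.18) or at 0.01 (0.31), and ranged from 0.21 to 0.43 with 1 library left out, losing the call without WT replicate 2 (0.21), WT replicate 3 (0.28) or GFI1-KO replicate 2 (0.27). Same-numbered libraries did not deviate together (r between -0.00337 and 0.0230 over 11867 genes). With the replicate block, which pairs them by number, 14 genes were higher and 32 lower, and no call among the 49 changed. Calls of MCM4, MCM7, PRIM2 and UHRF1 depend on single libraries or tools.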
